A study of Mus musculus with 6 samples.

Results

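The Hox cluster genes were followed in RNA of mouse lung endothelial cells (ECs). They were taken as every gene symbol made of Hox, a cluster letter from a to d and a paralogue number, which gave 39 of the 24063 symbols in the count files. The libraries came from male C57BL6 mice, 8 weeks old by the sample labels, with no mutant allele or agent in either group. Group sham held 3 libraries of sham-operated mice. Group PNX held 3 libraries of mice whose lung had been removed on one side (pneumonectomy, PNX) 7 days before, an operation after which the remaining lobes grow. Each library was pooled from 2 mice, and the cells were picked with magnetic beads carrying an antibody to CD31, a surface protein of ECs that leukocytes and platelets also carry. Replicates 1 and 2 of both groups are marked as re-used in their titles and replicate 3 of both groups is not. They are called the earlier and the later deposit here. That is inferred from the mark, since the titles name no deposit, date or batch.

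Hox genes code for homeodomain transcription factors that give cells along the head to tail axis their position. They lie in 4 clusters, HoxA to HoxD, and members with the same number in different clusters, a paralogue group, descend from the same ancestral gene. Low numbers are generally active in anterior tissue and high numbers in posterior tissue and in the limbs, and adult cells often keep part of the pattern of their origin. Hox proteins bind DNA together with TALE family partners such as Meis1. Retinoic acid switches on many genes of the low numbered groups during development, and Polycomb complexes keep unused Hox genes silent. In the lung Hoxa5 is the member best known from mouse mutants, in which the trachea and the lung form abnormally.

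Total counts lay between 29526989 and 81282871 per library, and replicate 3 of each group had the fewest. Hox genes took 128.6, 131.0 and 86.9 of each 1e+06 counts in sham (replicates 1, 2 and 3, the order of all values given by library) and 137.4, 141.7 and 79.7 in PNX. Replicates 1 and 2 of a group differed little beyond counting error (chi-square per gene of 1.75 in sham and 1.57 in PNX, and 0.707 and 1.17 over the Hox genes with 20 or more counts in the pair), whereas pairs with replicate 3 gave 67.9 to 87.1 (Hox genes 23.5 to 41.0). Replicates 1 and 2 were therefore summed and counted as 1 sample, which left 2 samples per group. EC markers were high in all 6 libraries (Pecam1 at 2016 to 2518 and Cdh5 at 1274 to 1530 CPM, the count per 1e+06 counts of the scaled library), so the labelled cell type was present. The summed level of 12 EC markers was 11926 to 14898 CPM in sham and 10687 to 11829 in PNX. Markers of other cell types were present too. The summed level of 12 fibroblast markers was 6486 to 8997 CPM in sham and 18503 to 22566 CPM in PNX, of which Fn1, a matrix gene that ECs also express, made up 40.0% to 55.7% and 63.7% to 70.3% (without it the sum was 3892 to 3989 and 6705 to 6754 CPM). That of 11 epithelial markers was 9751 to 10434 and 3069 to 6685, and that of 6 mesothelial markers 159.6 to 379 and 325 to 863. For 9 mural and smooth muscle markers it was 459.7 to 589 and 431 to 589, and for 11 leukocyte markers 2822 to 5276 and 3282 to 4704. No marker of these lists was at 0 in all libraries. The part of such cells in the Hox values was not tested, and in bulk RNA fewer cells of a type and less RNA per cell cannot be told apart.

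Of the 39 Hox genes, 20 had 50 or more counts over the 6 libraries, 10 had 1 to 49 and 9 had none. On few counts for Hoxd9 and Hoxd10 in the later deposit, all 5 expressed HoxD genes had PNX to sham ratios above 1 in both. Promoter sequences are shown for 3 of them (Hoxd3, Hoxd4 and Hoxd8), for the most abundant Hox gene (Hoxa5) and for one with no count (Hoxa13). Each is the 250 bases before the RefSeq transcript start on GRCm38.p6, written 5′ to 3′ in the direction of the gene. Capitals mark matches on either strand to CCAAT (bound by the factor NF-Y), TATAAA (the TATA box), TGATTNAT (a Pbx-Hox site) and AGGTCA (the core of sites of nuclear receptors, the family of the retinoic acid receptors).
Hoxa5, chr6:52204588-52204837, minus strand: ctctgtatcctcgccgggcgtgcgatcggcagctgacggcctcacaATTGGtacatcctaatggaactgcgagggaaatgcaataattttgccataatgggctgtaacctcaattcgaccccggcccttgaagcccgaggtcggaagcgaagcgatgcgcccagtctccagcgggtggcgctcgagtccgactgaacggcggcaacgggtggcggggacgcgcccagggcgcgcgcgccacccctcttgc
Hoxd3, chr2:74711743-74711992, plus strand: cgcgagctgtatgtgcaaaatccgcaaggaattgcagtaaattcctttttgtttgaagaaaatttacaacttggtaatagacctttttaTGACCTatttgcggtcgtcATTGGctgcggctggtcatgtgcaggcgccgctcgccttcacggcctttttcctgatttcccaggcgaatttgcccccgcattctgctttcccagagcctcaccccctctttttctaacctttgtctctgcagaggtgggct
Hoxd4, chr2:74721728-74721977, plus strand: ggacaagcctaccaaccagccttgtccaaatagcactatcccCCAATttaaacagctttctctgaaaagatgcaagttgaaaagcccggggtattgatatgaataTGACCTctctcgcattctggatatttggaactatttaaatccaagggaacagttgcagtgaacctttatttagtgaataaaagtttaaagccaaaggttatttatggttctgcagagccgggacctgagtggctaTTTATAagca
Hoxd8, chr2:74704365-74704614, plus strand: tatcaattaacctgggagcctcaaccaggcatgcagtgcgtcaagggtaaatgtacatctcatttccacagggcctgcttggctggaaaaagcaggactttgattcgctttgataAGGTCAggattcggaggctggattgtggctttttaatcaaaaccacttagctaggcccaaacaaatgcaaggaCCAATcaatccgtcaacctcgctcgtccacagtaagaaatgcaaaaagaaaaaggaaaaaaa
Hoxa13, chr6:52260881-52261130, minus strand: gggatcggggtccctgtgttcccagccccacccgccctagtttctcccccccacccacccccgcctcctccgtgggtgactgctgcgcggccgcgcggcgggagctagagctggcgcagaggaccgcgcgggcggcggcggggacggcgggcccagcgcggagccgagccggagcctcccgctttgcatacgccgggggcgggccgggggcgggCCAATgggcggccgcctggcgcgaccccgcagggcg
The Hoxa5 window held 28 CpG dinucleotides and a GC content of 63.6%, the Hoxd8 window 6 and 44.4%, and the silent Hoxa13 window 35 and 80.0%. A GC-rich promoter was thus found at the member with the most counts and at one without any. Windows were found for 22 Hox genes (24 windows, of which 12 belong to genes with 50 or more counts). The median GC content was 60% in those 12, 57.4% in the 12 of less expressed genes and 52.4% in all 32851 windows of the table. AGGTCA was in 6 of the 12 windows of expressed Hox genes (Hoxb4, Hoxc4, Hoxd3, Hoxd4, Hoxd8 and Hoxd10), in 0 of the 12 of less expressed Hox genes and in 14% of all windows. CCAAT was in 7 of 12 windows of either set (33.8% of all windows), TATAAA in 1 and 3 (12.4%) and TGATTNAT in 1 of either set (2.82%). The window of Hoxd9, a HoxD gene that also had a ratio above 1 in both deposits, held none of these motifs. These matches are a description of letters in short windows, and the motifs did not overlap in the windows shown.

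**Figure D1:**
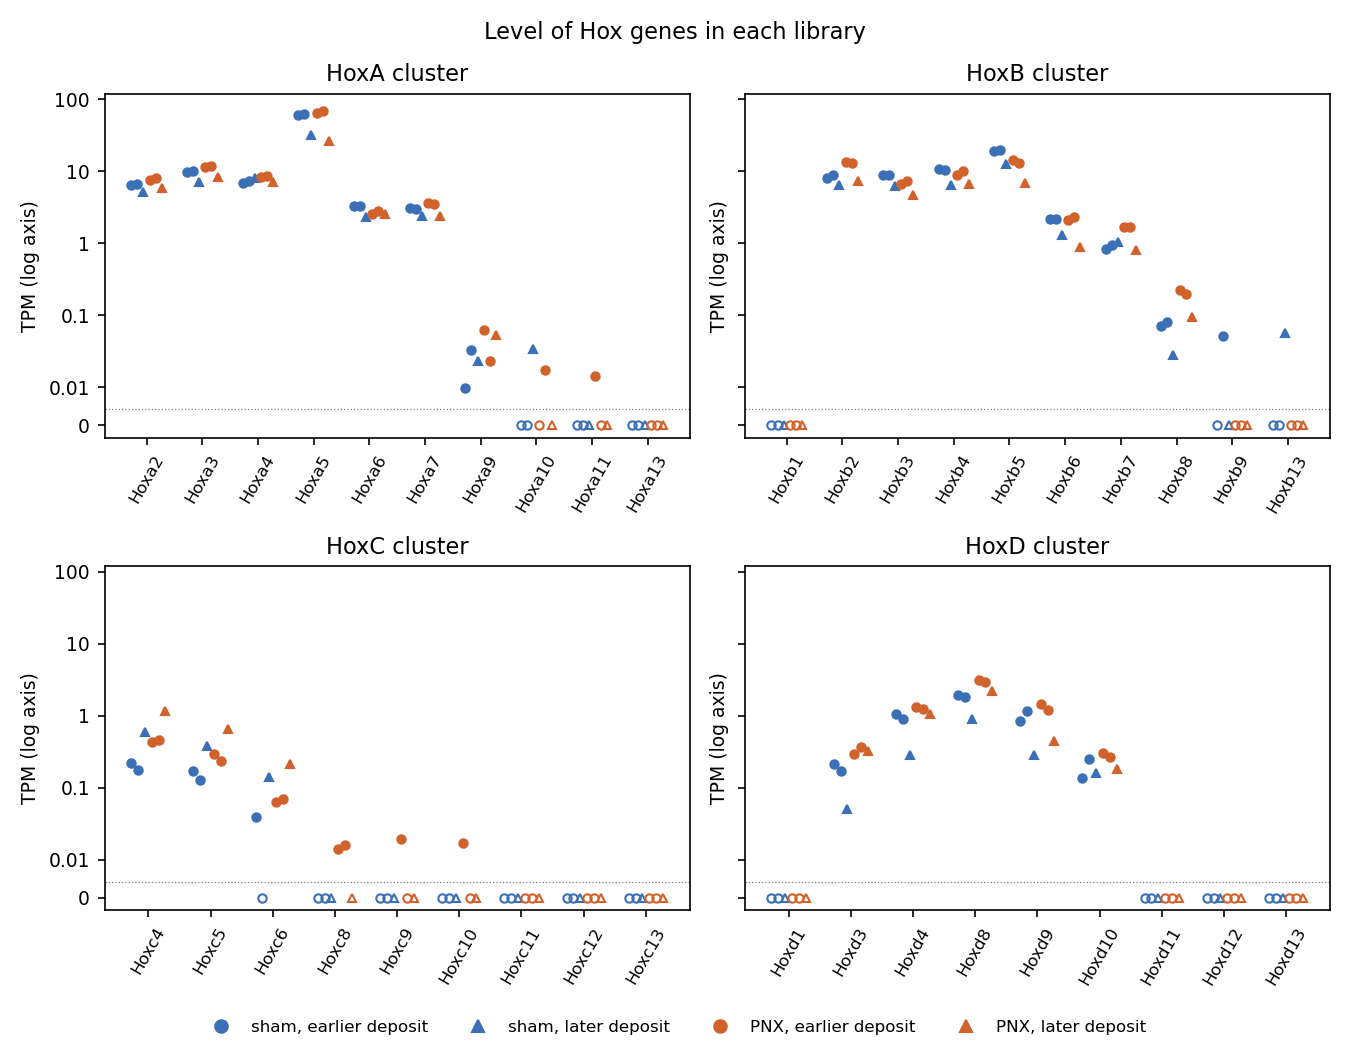
Level of Hox genes in each library in TPM (transcripts per 1e+06 transcripts, log axis), by cluster and in order of paralogue number. Blue is sham, orange is PNX, circles are the earlier and triangles the later deposit, and open symbols under the dotted line are values of 0. Hoxa5 stands above all others, and from number 9 on the points are at 0 or near it except Hoxd9 and Hoxd10.

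The expressed genes were those of the anterior and middle paralogue groups. Of the 23 genes of paralogue groups 1 to 8, 18 had 50 or more counts, against 2 of the 16 genes of groups 9 to 13, which were Hoxd9 and Hoxd10. By cluster, 7 of 11 HoxA genes, 6 of 10 HoxB genes (Hoxb2 to Hoxb7), 2 of 9 HoxC genes (Hoxc4 and Hoxc5) and 5 of 9 HoxD genes (Hoxd3, Hoxd4, Hoxd8, Hoxd9 and Hoxd10) reached it. In every library 17 of the 39 genes had at least 10 counts. The silent genes were Hoxa13, Hoxb1, Hoxc11, Hoxc12, Hoxc13, Hoxd1, Hoxd11, Hoxd12 and Hoxd13, among them the regulators of digits and genitals in group 13. A count of 0 over the 356528422 counts of the 6 libraries allows a level of up to 0.00841 CPM, for counting error only. The 10 genes with few counts were Hoxa9, Hoxa10, Hoxa11, Hoxb8, Hoxb9, Hoxb13, Hoxc6, Hoxc8, Hoxc9 and Hoxc10, and the highest count of any of them in a library was 18 (Hoxb8). Hoxa9, which in other vascular beds is a regulator of EC genes, had 29 counts over all libraries, and Hoxc6 had 15. In groups 10 to 13 no gene but Hoxd10 had more than 4 counts in total.

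Levels of different genes were compared in TPM, which is scaled for transcript length, using the transcript of each gene with the most counts. Hoxa5 was the most abundant Hox gene in every library. It was at 60.7, 62.3 and 31.9 TPM in sham and at 65.2, 68.6 and 26.0 TPM in PNX, and it made up 29.8% to 43.0% of all Hox TPM. The later deposit had less of it in both groups. Hoxb5, which takes part in branching of the lung and in early EC differentiation, came next with a median of 13.7 TPM over the 6 libraries. After it came Hoxa3, a regulator of angiogenesis and wound repair (9.92 TPM), Hoxb4, best known from blood stem cells (9.52), and Hoxb2 (8.39), Hoxa4 (7.64), Hoxb3 (6.95) and Hoxa2 (6.48). Hoxb2 and Hoxa2 are patterning genes of the hindbrain and branchial arches. The lower ranks included Hoxa7 (3.05), Hoxa6 (2.69), Hoxb6 (2.16), Hoxd8 (2.08), Hoxd4 (1.07), Hoxd9 (1.01), Hoxb7 (0.998), Hoxc4 (0.447), Hoxc5 (0.264), Hoxd3 (0.257) and Hoxd10 (0.216). In this order of 20 genes only 3 of the 19 neighbouring pairs had ranges over libraries that did not overlap, which were Hoxa5 over Hoxb5, Hoxa2 over Hoxa7 and Hoxa6 over Hoxb6. Hoxc4 lay above Hoxc5 within each of the 6 libraries although their ranges overlapped, and the order within libraries varied for the other pairs.

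Some genes share reads in ways that bear on these levels. Hoxb3 has 2 transcripts and Hoxd8 has 3 in the files, with nearly the same count on each, for example 128, 127 and 128 for Hoxd8 in sham replicate 1. A read thus seems to have been counted on every transcript it fits. Summing the transcripts would raise the sham median of Hoxb3 from 8.78 to 17.3 TPM and that of Hoxd8 from 1.85 to 5.97 TPM. The CPM values and fold changes given for these genes use the sum, and their count ratios use the transcript with the most counts. On GRCm38, the build of the files, Hoxa5 lies at chr6:52201754-52204587 on the minus strand, Hoxb5 at chr11:96303336-96306121, Hoxb3 at chr11:96323326-96347930, Hoxd8 at chr2:74704615-74707933 and Hoxc4 at chr15:103018934-103036852 on the plus strand, and counts are of their exons as RefSeq transcripts. The exons of 11 of the 20 expressed genes overlap those of another gene in GENCODE vM21, 8 of them a gene on the opposite strand. These include Hoxb2 and Hoxb3 with Hoxb3os and Hoxb5 with Hoxb5os. Whether the counting used strand is not given in the sources used here, so sense and antisense reads of these genes cannot be told apart. Hoxa5, Hoxd8 and Hoxc4 are among the 9 with no such overlap.

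**Figure D2:**
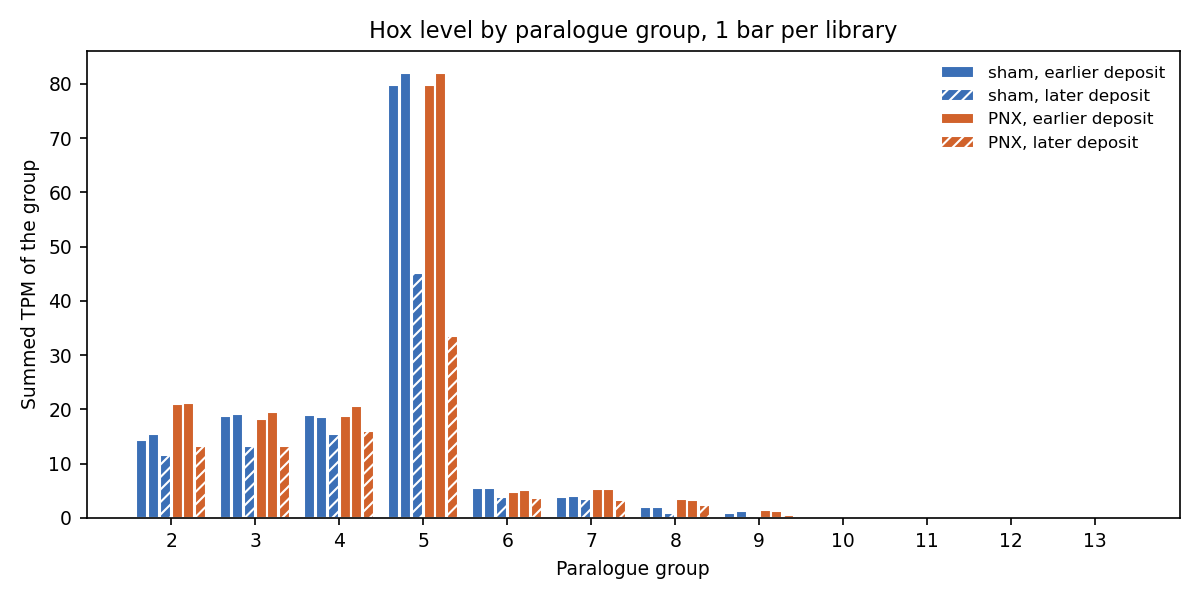
Summed TPM of paralogue groups 2 to 13 (bars from 0, 1 bar per library, hatched for the later deposit). Group 5 is the tallest in each library, between 33.5 and 82.0 TPM, and groups 10 to 13 do not rise above 0.323 TPM.

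Paralogue group 5 (Hoxa5, Hoxb5 and Hoxc5) held 38.3% to 55.1% of all Hox TPM. Groups 9 to 13 together held 0.581% to 1.20%, and group 12 was at 0 in each library. By cluster, HoxA held 61.2% to 62.7% in sham and 61.5% to 65.6% in PNX. HoxB held 34.1%, 34.2% and 35.9% in sham and 30.5%, 30.1% and 31.3% in PNX, so its share was lower in each PNX library than in any sham library. HoxC held 0.298%, 0.207% and 1.17% in sham and 0.545%, 0.488% and 2.32% in PNX. HoxD held 2.92%, 2.91% and 1.76% in sham and 4.26%, 3.80% and 4.83% in PNX. The HoxD share was higher in each PNX library than in any sham library, while the HoxC share overlapped between groups and was highest in the later deposit. Group 2 (Hoxa2 and Hoxb2) held 9.87% to 12.2% in sham and 13.3% to 15.2% in PNX, and group 8, mostly Hoxd8, 0.975% to 1.40% and 2.01% to 2.63%. For comparison, the level of a single gene was higher in all 3 PNX libraries than in all 3 sham libraries for 18.6% of the 16598 genes tested and lower in all for 18% of them. No test was run on shares.

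PNX was compared with sham to ask which genes differ in ECs of the growing lung. The test was the quasi-likelihood F test of edgeR on 2 samples per group with adjusted p-values over all genes, and a call needed an adjusted p under 0.01 with an absolute log2 fold change above 1. All 20 expressed Hox genes and none of the 19 others passed the filter on low counts. No Hox gene was called, and no gene of the 16598 was (0%). Counts were also simulated with the deposit effect of each gene the same in both groups. In these this fit found 0 of 100 genes changed 2-fold and 36 of 100 changed 4-fold, at an adjusted p under 0.05. The absence of a call thus does not show that a Hox gene was unchanged. The lowest adjusted p of any gene was 0.0720, 2076 genes (12.5%) had an unadjusted p under 0.05, and 0 of the 20 Hox genes did. DESeq2 called 587 genes on the same 4 samples (2.96%) and 927 on the 6 libraries (4.68%), edgeR on the 6 libraries as separate replicates called 409 (2.51%) and limma-voom on 4 samples 0, with 0 Hox genes in each. Hox adjusted p-values from edgeR ran from 0.500 (Hoxd8) to 1.0, and their log2 fold changes from -0.62 (Hoxb5) to 1.19 (Hoxd3). The fold change was above 0 for 15 Hox genes and below 0 for 5, the median being 0.24, against 48.0% above 0 and a median of -0.01 over all genes tested. A fold change past 1 on the log2 scale was found for 2 of 20 Hox genes (Hoxd3 and Hoxc4) and 9.34% of all genes.

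The deposits differ strongly and the re-used mark divides both groups alike. A fit with the deposit, as inferred from that mark, as a replicate block was therefore set beside the first. It called 849 genes (5.12%) and again 0 Hox genes. At an adjusted p under 0.05 with no minimum fold, 3 of 20 Hox genes passed in that fit, against 21.6% of all genes. Hoxd8 was higher after PNX (11.5% of all genes were), and Hoxb5 and Hoxb3 were lower (10.1%). The block fit rests on 1 pair of samples per deposit and has 1 residual degree of freedom per gene besides what it borrows from other genes. In simulated counts, at an adjusted p under 0.05, it found 87 of 100 genes changed 2-fold and 96 of 100 changed 4-fold. It also called 31 unchanged genes. The simulated deposit effect was the same in both groups, which is what the block fit assumes. The simulation thus cannot show how this fit does where the effect of PNX differs between deposits. The direction was the same in both deposits for 13 Hox genes, 11 higher and 2 lower, and opposite for 7. The share of all genes with the same direction was not counted, so these counts cannot be called particular to Hox genes. Taking the 6 libraries as separate replicates with the block called 1104 genes (6.79%) and 1 Hox gene, Hoxc4, but it treats replicates 1 and 2 as independent. Other forms of the block fit called 624 genes with DESeq2 size factors (3.76%), 727 on the transcript with the most counts (4.41%) and 813 with DESeq2 (4.1%), and 0 Hox genes.

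**Figure D3:**
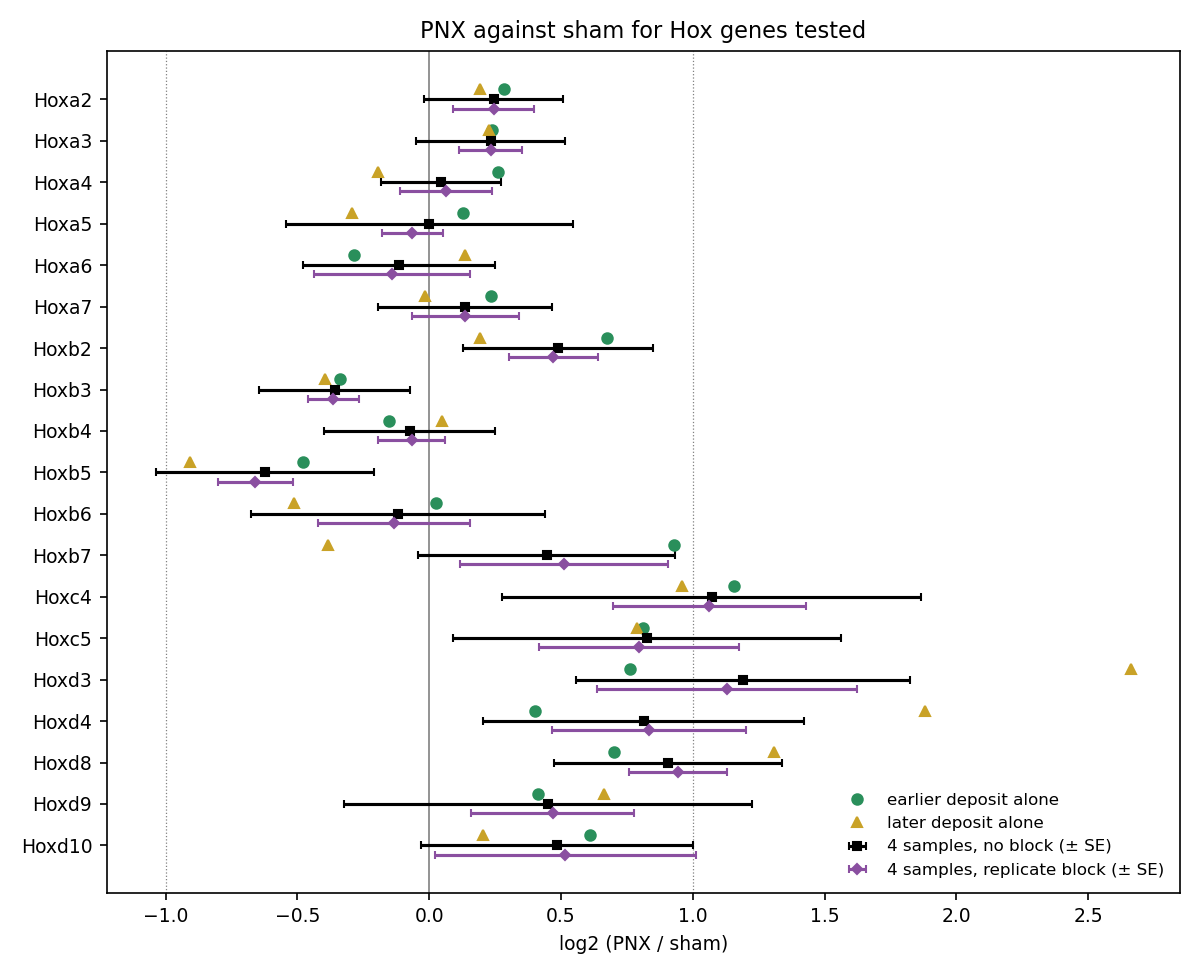
Log2 fold change (PNX over sham) of tested Hox genes. Black squares are the 2 samples per group without and purple diamonds with the deposit as block (bars are ± SE), and circles and triangles are the earlier and later deposit alone. The HoxC and HoxD genes lie right of 0 in both deposits, and Hoxb3 and Hoxb5 lie left of 0 in both.

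The 5 expressed HoxD genes all had a fold change above 0 in both deposits, and none passed the test. For Hoxd9 and Hoxd10 the later deposit held few counts. How many of all genes were above 0 in both deposits was not counted. Their median log2 fold change was 0.81. Hoxd8, which in lymphatic ECs works beside Prox1, was at 4.80, 4.54 and 2.17 CPM in sham and at 7.82, 7.37 and 5.38 in PNX. Each PNX library lay above each sham library. The means were 3.43 ± 1.78 and 6.51 ± 1.59 CPM (SD, n = 2 samples), a log2 fold change of 0.91 ± 0.43 (SE, adjusted p = 0.500 with edgeR). With the deposit as block it was 0.94 ± 0.19 (adjusted p = 0.0127 with edgeR), on counts that seem to hold a read once per transcript. On the transcript with the most counts alone, the block fit gave 0.91 ± 0.24 (adjusted p = 0.0405 with edgeR). The ratio of PNX to sham was 1.63 in the earlier deposit (95% interval 1.38 to 1.93, exact binomial, counting error only) and 2.44 in the later (1.49 to 4.10).

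Hoxd3, which in ECs promotes integrin expression and invasion, was the other HoxD gene whose groups did not overlap. It was at 0.251, 0.197 and 0.0588 CPM in sham and at 0.346, 0.424 and 0.372 CPM in PNX, a log2 fold change of 1.19 ± 0.63 (adjusted p = 0.551 with edgeR) and 1.13 ± 0.49 with the block (adjusted p = 0.150). These are 20, 14 and 2 counts against 26, 28 and 11, so the ratio was 1.70 in the earlier deposit (1.08 to 2.69) and 6.33 in the later (1.38 to 58.8). Hoxd3 and Hoxd8 were thus 2 of 20 tested Hox genes with all 3 PNX libraries higher, and no Hox gene had all 3 lower. Over all genes tested these shares were 18.6% and 18%. Hoxd4, a neighbour whose annotated gene overlaps Hoxd3, was at 1.09, 0.916 and 0.294 CPM in sham and at 1.37, 1.29 and 1.08 in PNX (log2 fold change 0.81 ± 0.61, and 0.29 without sham replicate 3). Its lowest PNX library lay just under its highest sham library. With replicates 1 and 2 summed, each PNX sample lay above each sham sample for Hoxd3, Hoxd4 and Hoxd8, 3 of the 20 tested Hox genes (21.6% of all genes), and below them for 0 (21.2%). Hoxd9 was at 0.715, 0.972 and 0.235 CPM in sham and at 1.21, 0.998 and 0.372 in PNX (0.45 ± 0.77). Hoxd10, which keeps ECs quiescent, was at 0.1003, 0.183 and 0.118 in sham and at 0.227, 0.197 and 0.135 in PNX (0.48 ± 0.52). Both overlapped between groups, and the replicate 3 values of Hoxd9 were the lowest of each group. In the later deposit Hoxd9 had 11 counts in PNX and 8 in sham, a ratio of 1.58 (0.580 to 4.53). Hoxd10 had 4 counts in each group there (1.15, 0.214 to 6.18), so both ratios lay within counting error of 1. Of 12 fibroblast markers 6 were called higher (3.89% of all genes were) and 0 lower in the block fit. At an adjusted p under 0.05 with no minimum fold, 8 were higher and 2 lower, Pdgfra (log2 fold change -0.49) and Itga8 (-0.86), which are named after their values were seen. The markers thus did not move in one direction. Col1a1 was at 125, 127 and 179.8 CPM in sham and at 619.5, 627 and 1029 in PNX, and the part of these cells in the HoxD values was not tested.

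HoxC was nearly silent, and its 2 expressed genes had values that rested on few counts. Hoxc4, which also acts in B cells, had 14, 10 and 16 counts in sham and 26, 24 and 27 in PNX. In CPM this was 0.176, 0.141 and 0.470 against 0.346, 0.363 and 0.913, with sham replicate 3 above PNX replicates 1 and 2. The log2 fold change was 1.07 ± 0.79 (adjusted p = 0.680 with edgeR), and 1.06 ± 0.36 with the block (adjusted p = 0.0792). Only the fit of 6 libraries with the block called it (1.08 ± 0.22, adjusted p = 0.00756). Within deposits the ratio was 2.23 (1.34 to 3.79) and 1.94 (1.01 to 3.86). Hoxc5 was at 0.188, 0.141 and 0.411 CPM in sham and at 0.320, 0.257 and 0.710 in PNX (0.83 ± 0.74, adjusted p = 0.743 with edgeR, and 0.14 without PNX replicate 3). Both genes were highest in replicate 3 of each group. Ptprc, a leukocyte marker, was also highest in replicate 3, at 476, 473 and 976 CPM in sham and 461, 472 and 789 in PNX, and its part in the HoxC values was not tested.

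**Figure D4:**
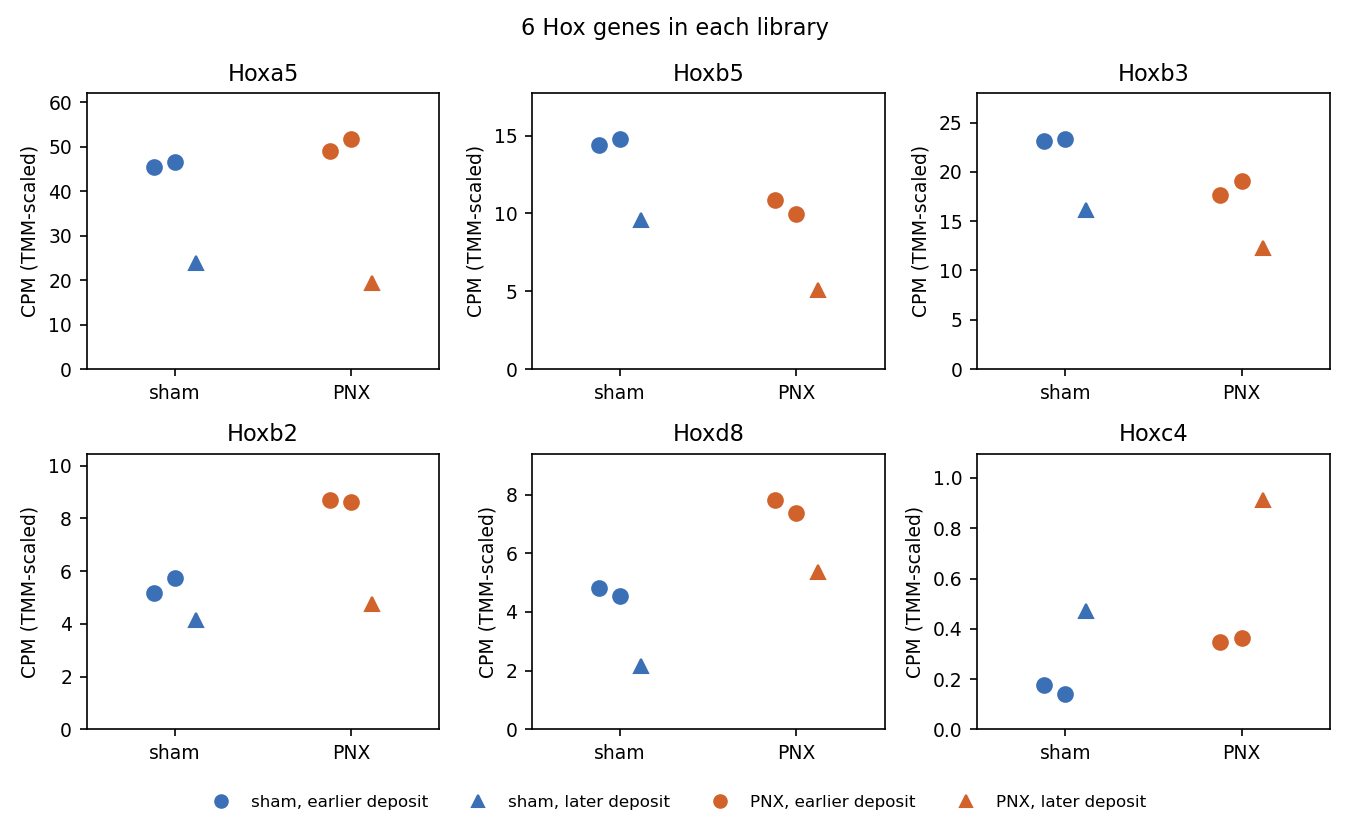
CPM (library sizes scaled by TMM, axis from 0) of 6 Hox genes in each library, sham in blue and PNX in orange, circles for the earlier and triangles for the later deposit. Hoxd8 is higher in each PNX library than in any sham library, and Hoxb5 and Hoxb3 are lower in PNX within each deposit while the groups overlap across deposits.

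HoxB genes had fold changes of both signs. Of the 6 expressed, 2 were above 0 and 4 below 0, none passed the test, and the median log2 fold change was -0.10. Hoxb5 was at 14.4, 14.7 and 9.58 CPM in sham and at 10.8, 9.98 and 5.11 in PNX. It was lower after PNX within each deposit, and the groups overlapped only because sham replicate 3 lay below PNX replicates 1 and 2. The means were 12.1 ± 3.53 and 7.80 ± 3.79 CPM (SD, n = 2 samples), a log2 fold change of -0.62 ± 0.41 (adjusted p = 0.642 with edgeR). With the block it was -0.66 ± 0.14 (adjusted p = 0.0169). The ratio was 0.718 (0.672 to 0.768) in the earlier deposit and 0.533 (0.437 to 0.649) in the later. Of 11 epithelial markers 5 were called lower (1.23% of all genes were) and 0 higher in the block fit. Epcam, which was not among these 5 (log2 fold change -0.63 ± 0.11 with the block), was at 15.3, 15.3 and 22.9 CPM in sham and at 10.5, 10.98 and 13.5 in PNX. It was highest in replicate 3 of each group, where Hoxb5 was lowest. The part of epithelial cells in the Hoxb5 values was not tested.

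Hoxb3, a regulator of capillary growth in ECs, was at 23.1, 23.3 and 16.2 CPM in sham and at 17.7, 19.1 and 12.3 in PNX. Its log2 fold change was -0.36 ± 0.29 (adjusted p = 0.707 with edgeR), and -0.36 ± 0.10 with the block (adjusted p = 0.0365). The block fit gave an adjusted p of 0.0647 on the transcript with the most counts and of 0.163 with DESeq2, so Hoxb3 passed 0.05 in only some forms of it, while Hoxd8 and Hoxb5 passed in each form run. The ratio was nearly the same in both deposits, 0.787 (0.733 to 0.845) and 0.759 (0.628 to 0.916). Hoxb2, which lies beside Hoxb3 on chromosome 11, had the opposite sign. It was at 5.18, 5.72 and 4.14 CPM in sham and at 8.70, 8.61 and 4.73 in PNX, a log2 fold change of 0.49 ± 0.36 (adjusted p = 0.677) and 0.47 ± 0.17 with the block (adjusted p = 0.0886). Its ratio was 1.59 (1.46 to 1.74) in the earlier deposit and 1.14 (0.898 to 1.45) in the later, and the change of the ratio between deposits was not tested. Hoxb3, Hoxb4, Hoxb5 and Hoxb6, which follow each other, all had fold changes below 0, and Hoxb2 and Hoxb7 on either side had fold changes above 0. Of these, Hoxb4, Hoxb6 and Hoxb7 had opposite signs in the earlier and the later deposit, and no test was run on the order.

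Hoxb4 was at 11.1, 10.6 and 6.67 CPM in sham and at 9.06, 10.5 and 6.90 in PNX (log2 fold change -0.07 ± 0.32). Hoxb6 was at 1.15, 1.16 and 0.676 CPM in sham and at 1.13, 1.23 and 0.473 in PNX (-0.12 ± 0.56). Hoxb7 was at 0.426, 0.479 and 0.529 CPM in sham and at 0.853, 0.862 and 0.406 in PNX (0.45 ± 0.49). Hoxb7 was higher after PNX in the earlier deposit, with a ratio of 1.90 (1.40 to 2.60), and its ratio in the later deposit was 0.767 (0.337 to 1.68). The sign was opposite between deposits for these 3 genes. Hoxb8, which did not pass the filter on low counts and is named after its values were seen, had 6, 6 and 1 counts in sham and 18, 14 and 3 in PNX. DESeq2 on the 6 libraries, with no such filter, gave it a log2 fold change of 1.52 ± 0.75 (adjusted p = 0.151).

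HoxA was the cluster with the most RNA, and its 7 expressed genes had log2 fold changes between -0.11 and 0.24 (median 0.14). Of these 6 were above 0, none passed the test, and 4 had opposite signs in the 2 deposits. Hoxa5 was at 45.5, 46.6 and 23.8 CPM in sham and at 48.99, 51.7 and 19.4 in PNX. The means were 35.0 ± 15.8 and 35.0 ± 21.9 CPM (SD, n = 2 samples), a log2 fold change of 3e-04 ± 0.55. The ratio was 1.09 (1.06 to 1.13) in the earlier deposit and 0.817 (0.733 to 0.910) in the later, on either side of 1 beyond counting error. With the block the fold change was -0.06 ± 0.11 (adjusted p = 0.737 with edgeR).

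Hoxa2 and Hoxa3 were the HoxA genes with like ratios in both deposits. Hoxa3 was at 9.92, 10.2 and 7.11 CPM in sham and at 11.5, 12.2 and 8.32 in PNX (log2 fold change 0.23 ± 0.28), with a ratio of 1.18 (1.10 to 1.26) in the earlier deposit and 1.17 (0.976 to 1.40) in the later. Hoxa2 was at 4.53, 4.65 and 3.67 in sham and at 5.44, 5.73 and 4.19 in PNX (0.24 ± 0.26). Neither passed the test on 2 samples per group, without the block (adjusted p = 0.820 for Hoxa3 and 0.792 for Hoxa2 with edgeR) or with it (0.207 and 0.306). With 6 libraries and the block, which treats replicates 1 and 2 as independent, the adjusted p was 0.0107 for Hoxa3 and 0.0225 for Hoxa2. Hoxa4 was at 4.23, 4.41 and 4.88 CPM in sham and at 5.05, 5.29 and 4.26 in PNX (0.05 ± 0.23). Its groups overlapped. Hoxa6 was at 0.915, 0.916 and 0.646 CPM in sham and at 0.720, 0.787 and 0.710 in PNX (-0.11 ± 0.36). Hoxa7, which patterns the thorax, was at 2.38, 2.37 and 1.88 CPM in sham and at 2.81, 2.77 and 1.86 in PNX (0.14 ± 0.33).

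Most Hox genes differed between the deposits within a group. In the later deposit 15 of the 20 Hox genes were lower in both groups, and 3 were higher in both, Hoxc4 and Hoxc5 among them. The same shares over all genes were not counted. The ratio of later to earlier was 0.517 in sham (0.480 to 0.556, exact binomial) and 0.386 in PNX (0.354 to 0.421) for Hoxa5, and 0.281 and 0.334 for Hoxd9. For Hoxc4 it was 2.95 and 2.57. Tcf21, a transcription factor of lung fibroblasts, was lower in the later deposit as well, at 41.1, 42.7 and 22.8 CPM in sham and at 40.3, 42.9 and 13.5 in PNX. Its list did not follow it, since 7 of 12 fibroblast markers were higher and 4 lower in the later deposit in sham, and 6 were higher and 6 lower in PNX. Of 12 EC markers 11 were lower in sham and 9 in PNX, and the part of either cell type in the Hox values was not tested. What else separates the deposits is not given by the labels.

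**Figure D5:**
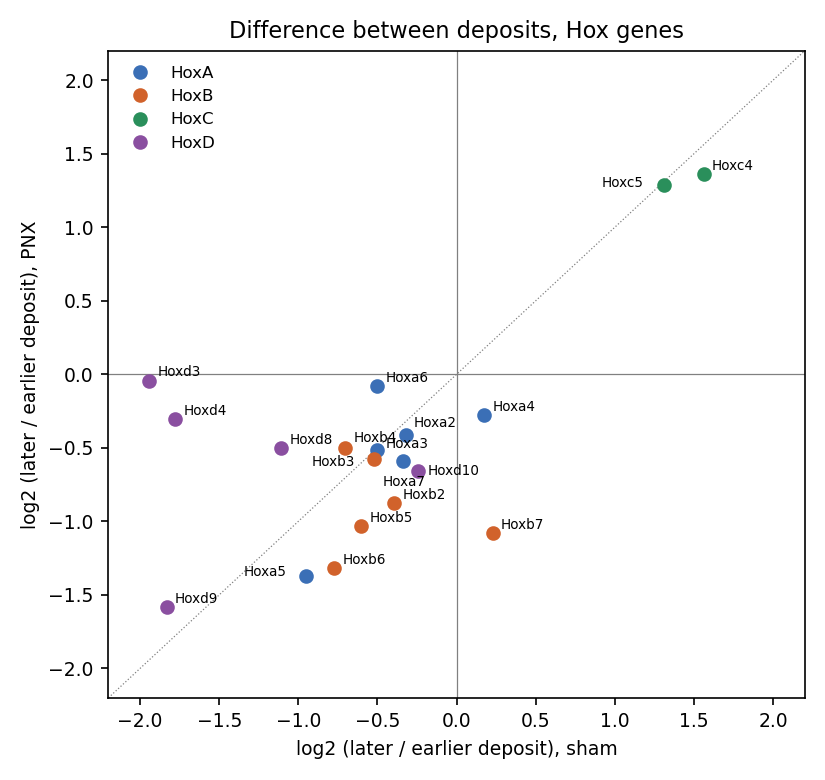
Log2 ratio of the later to the earlier deposit for tested Hox genes, in sham (x axis) and in PNX (y axis), coloured by cluster, with the dotted line where both are equal. Most genes lie below 0 on both axes, and Hoxc4 and Hoxc5 lie above 0 on both.

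Hox proteins bind with TALE partners, all 9 of which were expressed. No partner was called without the block, with it or with 6 separate libraries. Meis1 was at 135, 134 and 107 CPM in sham and at 85.9, 85.5 and 81.5 in PNX, so each PNX library lay below each sham library. Its log2 fold change was -0.53 ± 0.16 (adjusted p = 0.302 with edgeR), and -0.52 ± 0.09 with the block (adjusted p = 0.00794), under the fold needed for a call. Of 17 non-coding genes of the clusters 12 were in the files, 7 of them at 0 in all libraries. Among those at 0 were Hotair and Hottip, and only Hoxaas3 and Mir10a were tested, with neither called.

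Of 20 Polycomb and trithorax regulators, which keep Hox genes silent or active, 0 were called without the block and 2 with it (5.12% of all genes were). Ezh2, a methyltransferase of Polycomb complex PRC2, was at 18.3, 18.8 and 20.9 CPM in sham and at 42.1, 44.0 and 51.1 in PNX. It rose by 1.25 ± 0.09 on the log2 scale with the block (adjusted p = 1.15e-04 with edgeR, and 0.0842 without the block). Cbx7, a reader subunit of complex PRC1, was at 42.3, 42.2 and 50.6 CPM in sham and at 20.7, 20 and 25.5 in PNX, a log2 fold change of -1.02 ± 0.09 with the block (adjusted p = 2.82e-04, and 0.134 without). In the block fit, 2 of the list were higher at an adjusted p under 0.05 with no minimum fold (11.5% of all genes). Lower were 4 (10.1%), among them Ezh1, also a PRC2 methyltransferase and named after its values were seen. Ezh1 was at 64.0, 65.2 and 63.9 CPM in sham and at 45.1, 45.1 and 45.6 in PNX. Its log2 fold change was -0.50 ± 0.08 with the block (adjusted p = 0.00576 with edgeR, and 0.216 without). The median over the list was -0.12 without the block.

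Of 15 genes of retinoic acid signalling and the Cdx and Gdf11 regulators, 11 were tested, with 0 called without the block and 3 higher (3.89% of all genes) and 0 lower (1.23%) with it. At an adjusted p under 0.05 with no minimum fold, 2 were lower, Cyp26b1 and Aldh1a1, which are named after their values were seen. Cyp26b1, which degrades retinoic acid, was at 1664, 1693 and 122 CPM in sham and at 10.2, 9.89 and 20.02 in PNX. Each PNX library lay far below each sham library, and sham replicate 3 far below the other sham libraries. Its log2 fold change was -5.08 ± 1.15 with the block (adjusted p = 0.0204 with edgeR), -5.91 ± 1.43 without it (adjusted p = 0.210) and -6.44 with 6 separate libraries (adjusted p = 0.0167). Aldh1a1, which makes retinoic acid, had a log2 fold change of -0.67 ± 0.17 with the block (adjusted p = 0.0291). Aldh1a3, another enzyme that makes it, was at 0.853, 0.944 and 0.646 CPM in sham and at 3.37, 3.75 and 3.96 in PNX, a rise of 2.21 ± 0.24 on the log2 scale with the block (adjusted p = 0.00104 with edgeR, and 0.0880 without). Cyp26a1, which like Cyp26b1 degrades it, had 5, 6 and 2 counts in sham and 44, 28 and 12 in PNX (2.78 ± 0.47 with the block, adjusted p = 0.00688, and 0.129 without). Aldh1a2, also a synthetic enzyme, was at 12.4, 13.4 and 38.3 CPM in sham and at 29.8, 31.1 and 103.2 in PNX (1.34 ± 0.09 with the block, adjusted p = 1e-04, and 0.570 without). Msln, a mesothelial marker, was likewise highest in replicate 3 of each group and higher after PNX within each deposit, at 30.7, 31.0 and 115 CPM in sham and at 119, 118 and 368 in PNX, and its part in that value was not tested. The median of the retinoid list was -0.05 without the block.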

How the data were processed

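RNA of anti-CD31 bead-isolated lung cells was sequenced in 6 libraries (3 sham, 3 PNX), grouped by the sample labels. The labels give the mice as 8 weeks old and the methods of the study give an older age. The authors deposited, for each of 33068 RefSeq transcripts, a whole-number read count, with FPKM and TPM values. The submitters' processing notes name STAR and mm10. How reads were counted, with or without strand and on which annotation, is not given in the sources used here. Deposited FPKM values (scaled by transcript length and library) were not used, and the deposited TPM values served for levels only, from the transcript of a gene with the most counts.

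Counts were summed per symbol, and replicates 1 and 2 of a group, near-duplicates, to 1 sample. Tests used edgeR 4.0.16 under R 4.3.3 (TMM scaling, filterByExpr, quasi-likelihood F test, Benjamini-Hochberg over all genes, script tested on simulated counts). A standard error is the absolute log2 fold change over the square root of F. The study gives 3 samples per group, each pooled from 2 mice, while replicates 1 and 2 were near-duplicates by counts. The labels do not say whether these 2 came from separate mice, so p-values measure the spread between these samples. Alternatives were the deposit as replicate block, 6 separate libraries, DESeq2 1.42.0, limma 3.58.1 voom, other scaling, no filter, the top transcript and leaving out each library. Replicates 1 and 2 carry the re-used mark in sham and PNX alike, which was taken to pair the groups by deposit. The deviations of the deposits from their group means correlated between sham and PNX across 15184 genes (r = 0.723, genes not being independent replicates).

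Intervals of count ratios are 95% exact binomial, from the top transcript, and cover counting error only. A floor of 3 counts was used for a 0. Positions are from GENCODE vM21 on GRCm38 and promoters from RefSeq, GRCm38.p6.

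The Hox genes and the other gene lists were chosen with earlier results of these data known. Hox genes with 50 or more counts over 6 libraries were described by library. Of the partner and regulator lists the members called in any of 3 fits were named, at most 5 per list, with Meis1, and of the marker lists a few set genes. Of the genes these rules choose, 2 are not reported here.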

Additional observations from a re-analysis of the deposited data

How the results depend on the processing

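Without the replicate block no gene was called, and the precision was set by 2 samples per group and the spread between deposits. The number of genes called was 849 with the deposit as replicate block, 409 with 6 separate libraries and 1104 with 6 libraries and the block. It was 587 with DESeq2 on 4 samples and 927 on 6 libraries. Of the alternatives chosen after seeing the data, the block gave 624 genes with DESeq2 size factors, 727 on the transcript with the highest count and 813 with DESeq2, and limma-voom gave 0. Leaving out 1 library gave 0 to 2 genes, the 2 without PNX replicate 3. Other scaling, no filter and the top transcript gave 0. Of Hox genes 1 was called with 6 libraries and the block (Hoxc4) and 0 in each other setting. Where replicate 3 was left out, the group kept only its earlier-deposit sample, which was assumed to vary like the other group.

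The direction of 16 of the 20 Hox genes was the same in every setting that tested them (Hoxd10 was not tested when replicate 1 or 2 of either group was left out). Hoxa5, near 0 to begin with, turned to -0.064 with the replicate block, -0.019 with limma-voom, -0.0638 with the block and DESeq2 size factors, -0.0545 with the block on the top transcript and -0.0719 with DESeq2 and the block. It ran from -0.38 (without sham replicate 3) to 0.52 (without PNX replicate 3) when 1 library was left out, and was -0.01 without sham replicate 1 and -0.03 without PNX replicate 2. Without PNX replicate 3 Hoxb4 turned to 0.15, Hoxb6 to 0.33 and Hoxd9 was 0.95. Without sham replicate 3 Hoxd9 turned to -0.071, Hoxb4 was -0.36 and Hoxb6 -0.40. The cause was not tested. Leaving out 1 library gave -0.87 (without sham replicate 3) to -0.21 (without PNX replicate 3) for Hoxb5, -0.58 to -0.10 for Hoxb3 and 0.50 to 1.13 for Hoxd8 with the same 2 libraries. It gave 0.32 (without PNX replicate 3) to 1.90 (without sham replicate 3) for Hoxc4 and 0.14 to 1.495 for Hoxc5 with the same libraries, and 0.29 (without sham replicate 3) to 0.95 (without sham replicate 1) for Hoxd4. The 10 detected Hox genes under 50 counts were tested only with DESeq2, with no filter and, for Hoxa9 and Hoxb8, without replicate 3 of a group, and none was called.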
